A study of Mus musculus with 8 samples.

Results

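Oncofetal genes are switched on in the embryo, fall silent in most adult tissues and return in many tumours. The 7 described here belong to the Hmga, Lin28 and Igf2bp families, all of them known targets of the let-7 microRNAs: Hmga1, Hmga2, Lin28a, Lin28b, Igf2bp1, Igf2bp2 and Igf2bp3. They were found by gene symbol among the 56923 gene rows of the count files. Hmga2 was picked for its fall between day 3 and day 7 of organoid culture, so its values in the organoid groups are given as a description, with no test.

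The libraries came from thymic epithelial cells (TECs), the stromal cells that support and select developing T cells, of wild-type mice that received no treatment. The cells had been sorted as EpCAM-positive cells from fetal thymus (E16.5, C57BL/6J), with cells that carried blood, erythroid, endothelial or mesenchymal surface markers gated out. There were 4 groups of 2 libraries. TECs were profiled directly after isolation (in vivo) or grown as a flat monolayer on laminin until it was confluent, after 3 days (2D). Others were grown in Matrigel as organoids for 3 days (D3) or 7 days (D7). D3 organoids and 2D thus shared their time in culture, whereas D7 organoids had been cultured for longer than 2D. All cultures received the same medium with the growth factor FGF7, so every cultured group shared this factor. The study's methods say that sorted cells were collected in this medium with serum added. By these methods the in vivo cells met FGF7 at collection but were not cultured with it. The organoid medium also held the compound thiazovivin for the first 2 days, so D3 organoids were collected sooner after it than D7 organoids. Sorted cells were also collected in medium with thiazovivin, before lysis or culture. The study's methods do not say whether 2D received it during culture. QuantSeq 3′ RNA sequencing, which reads the ends of polyadenylated transcripts, gave 5084715 to 7612532 counted reads per library, and levels are given as counts scaled to a common library size with TMM factors (CPM).

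let-7 is a family of small RNAs that pair with the 3′ untranslated region (UTR) of target mRNAs through bases 2 to 8, the seed, and repress them. LIN28A and LIN28B bind let-7 precursors and block their maturation, and their own mRNAs are let-7 targets, so the pair form a double-negative loop that keeps let-7 low in early embryos. HMGA1 and HMGA2 are architectural proteins that bind AT-rich DNA in chromatin, and HMGA2 is known for sustaining fetal stem cell self-renewal. IGF2BP1, IGF2BP2 and IGF2BP3 are RNA-binding proteins that stabilise or localise bound mRNAs.

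The mature let-7 sequences show what the targets have in common. Of 11 mature mouse let-7 and miR-98 sequences in RefSeq (GRCm38.p6), 10 carry the same seed and let-7j differs in its last seed base. The first 3 below stand for the shared seed, and let-7j is shown as the exception. Capitals mark the seed.
mmu-let-7a-5p: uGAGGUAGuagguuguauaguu
mmu-let-7g-5p: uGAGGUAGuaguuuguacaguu
mmu-miR-98-5p: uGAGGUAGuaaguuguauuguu
mmu-let-7j: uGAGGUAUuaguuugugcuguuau

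The seed match is CTACCTC, and a seed match followed by A (CTACCTCA) is called an 8mer, the strongest class of site. The longest annotated 3′ UTR of each gene (GRCm39, GENCODE vM39) was searched on the transcript strand only. Each of the 7 genes held at least 1 seed match, and 6 of the 7, all but Hmga1, held an 8mer. The 7 were listed as known let-7 targets, so finding matches in them was set by that choice and tests nothing. Hmga2, Lin28b and Igf2bp1 held 4 matches each, Lin28a held 2, and Hmga1, Igf2bp2 and Igf2bp3 held 1. The same search found a seed match in 14.6% of the 3′ UTRs of 12524 genes tested, an 8mer in 5.11% and at least 4 matches in 13 genes, 3 of which are Hmga2, Lin28b and Igf2bp1. Long 3′ UTRs hold more matches by length alone: among the 8220 that were as long as those of the 7 genes (1191 to 6337 bases), 17.6% held a match and 6.13% an 8mer.

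The sites below are those of the genes whose levels are described next, each within 22 bases of the transcript. Capitals mark the seed match, and a following a makes it an 8mer. For Hmga2 (minus strand of chromosome 10) the 4 sites lie at chr10:120200129-120200150, chr10:120198892-120198913, chr10:120198454-120198475 and chr10:120197596-120197617.
Hmga2 site 1: ccgacattcaatttCTACCTCa
Hmga2 site 2: cccactcctcaataCTACCTCt
Hmga2 site 3: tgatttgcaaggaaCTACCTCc
Hmga2 site 4: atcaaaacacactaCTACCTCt
The only match of Hmga1 lies at chr17:27782252-27782273 (plus strand).
Hmga1 site 1: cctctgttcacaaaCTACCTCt
The 8mer of Lin28b lies near the start of its 3′ UTR, at chr10:45257118-45257139 (minus strand).
Lin28b site 1: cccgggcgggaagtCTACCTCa
The 3 8mers of Igf2bp1 lie at chr11:95852604-95852625, chr11:95850183-95850204 and chr11:95849589-95849610 (minus strand).
Igf2bp1 site 1: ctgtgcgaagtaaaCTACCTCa
Igf2bp1 site 2: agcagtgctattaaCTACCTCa
Igf2bp1 site 3: tataaatggatgaaCTACCTCa
The single 8mers of Igf2bp2 and Igf2bp3 lie at chr16:21878223-21878244 and chr6:49063721-49063742 (both minus strand).
Igf2bp2 site 1: cacacaaataaaagCTACCTCa
Igf2bp3 site 1: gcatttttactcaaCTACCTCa

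**Figure D1:**
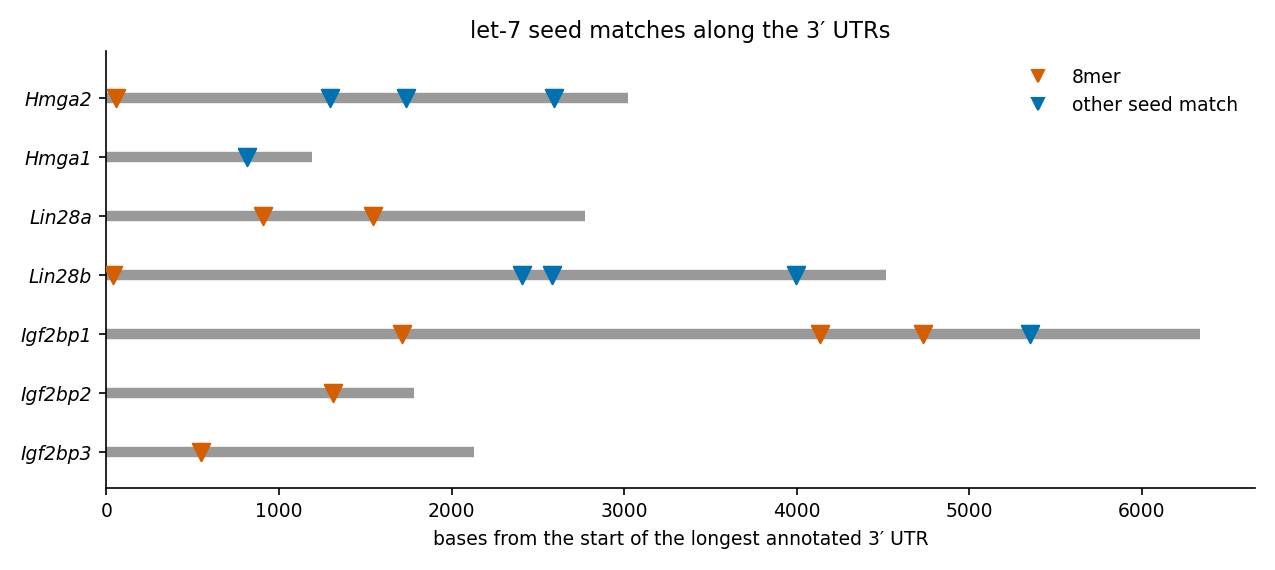
Position of let-7 seed matches along the longest annotated 3′ UTR of each gene, in bases from its start (grey bar, drawn to the UTR's full length). Orange triangles are 8mers and blue triangles other matches; Hmga2, Lin28b and Igf2bp1 carry 4 each, and the Hmga1 bar has no 8mer.

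The level of 6 of the 7 genes could be followed. Lin28a had 0 counts in all 8 libraries, where 3 counts, the floor used here, correspond to 0.371 to 0.591 CPM. The other 6 passed the filter of at least 1 CPM in at least 3 libraries, as did 14504 genes in all. Every gene of the 6 had its lowest group mean in D7 organoids, or in both organoid groups for Lin28b, and Hmga1, Hmga2, Igf2bp1 and Igf2bp2 had their highest mean in 2D. In bulk RNA, fewer cells that express a gene and less RNA per cell cannot be told apart.

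**Figure D2:**
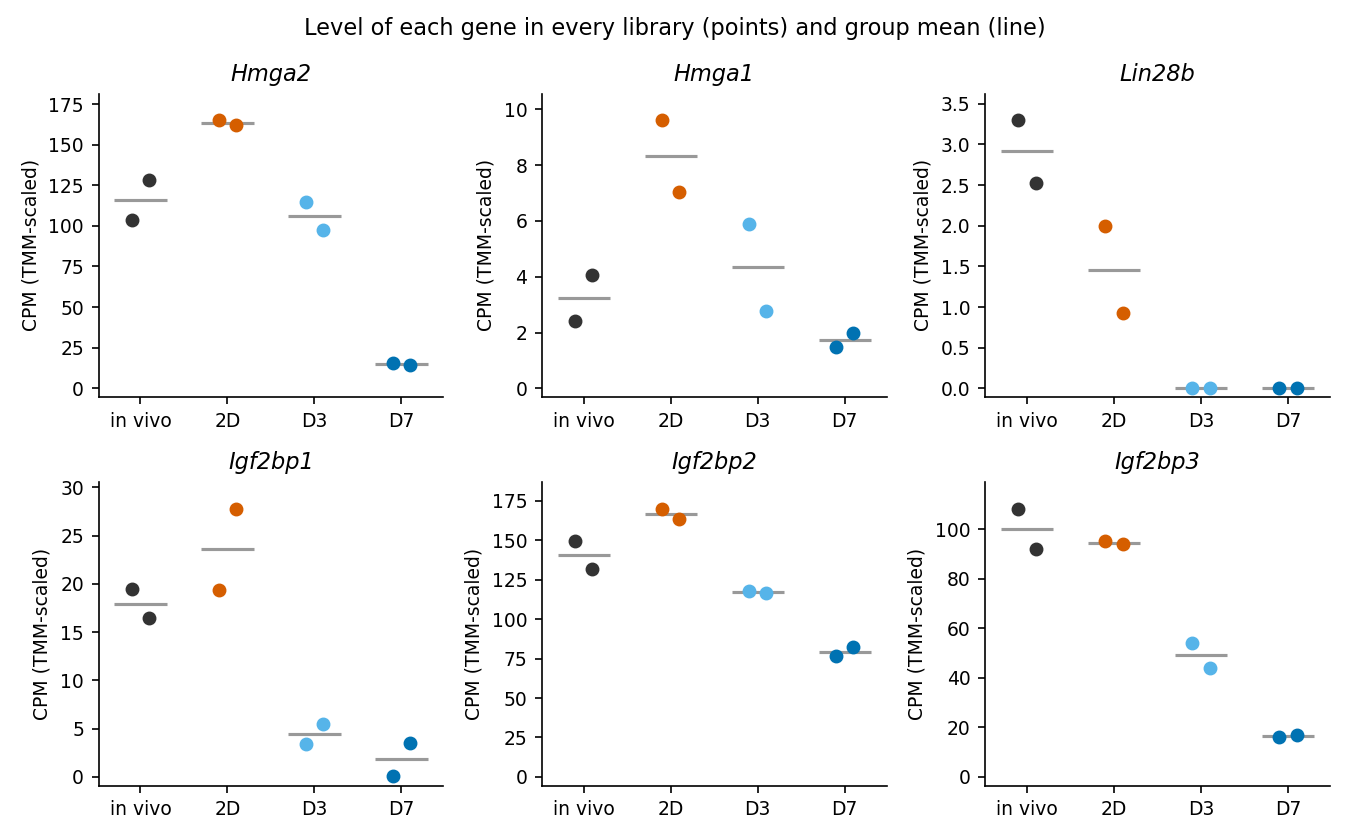
Level of 6 genes in CPM (y axis, linear, from 0) in each of the 8 libraries (points) by group (x axis); the grey line is the mean of the 2 libraries. Hmga2 and Igf2bp3 sit between 14.2 and 16.7 CPM in D7 and at 44.0 CPM or more in every other library, and Lin28b lies at 0 in all 4 organoid libraries.

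Calls were read against all genes tested, with edgeR's quasi-likelihood test and an adjusted p of at most 0.05 over 14504 genes. Lin28b reached 1 CPM only in in vivo and 2D libraries, so a gene that passed the filter this way had to be lower in the organoids, and counts against an organoid group are given without it. D7 organoids against 2D called 4 of 4 genes, each lower in D7. Over all genes 45.5% were called in that comparison, 24.4% higher and 21.1% lower in D7. D7 against D3 called 2 of 4, both lower in D7, beside 20.8% of all genes (10.9% higher and 9.9% lower). D3 against 2D called 3 of 4, all lower in D3, beside 38.3% of all genes (19.3% higher and 19.1% lower). In vivo against D7 called 3 of 4, all higher in vivo, beside 34.8% of all genes (16.8% higher and 18% lower in vivo). In vivo against D3 called 2 of 4, all higher in vivo, beside 28.2% of all genes (14% higher and 14.1% lower in vivo). In vivo against 2D called 1 of 6, Hmga2, which was lower in vivo, beside 41.6% of all genes (21.7% higher and 19.9% lower in vivo). The 6 comparisons reuse the same 4 groups, so they are not independent of each other. With 2 libraries a group an exact permutation test of one gene cannot give a two-sided p under 0.333, and the p-values measure the spread between these libraries only.

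Hmga2, at chr10:120197173-120313095 (minus strand), had 104 and 128 CPM in vivo, 165 and 162 CPM in 2D, 115 and 97.5 CPM in D3 and 15.6 and 14.2 CPM in D7. Both D7 libraries lay far below the other 6, whereas the in vivo and D3 values overlapped. The D7 mean was 14.9 ± 0.988 CPM (SD, n = 2), against 106 ± 12.3 in D3, 116 ± 17.4 in vivo and 163 ± 2.18 in 2D. The D3 mean was thus 7.14 times the D7 mean, the difference that picked the gene, and 0.676% of the genes tested had a lower fitted D7 over D3 value. The 2D mean was 11.0 times, and the in vivo mean 7.80 times, the D7 mean, which uses the same D7 libraries and was not tested. In the comparison that used no organoid library, Hmga2 was lower in vivo than in 2D, with a log2 fold change of -0.49 ± 0.17 (SE) (adjusted p = 0.0252, edgeR). That call was lost when library size alone was used for scaling (-0.31, adjusted p = 0.152) and without in vivo replicate 1 (-0.35) or either 2D library (-0.48 and -0.52), with adjusted p over the alternatives from 0.0125 to 0.190.

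Hmga1, at chr17:27775449-27782648 (plus strand), gave few reads, 10 to 53 in a library. It had 2.43 and 4.08 CPM in vivo, 9.61 and 7.04 CPM in 2D, 5.90 and 2.79 CPM in D3, and 1.48 and 1.97 CPM in D7. The 2D libraries were the highest and the D7 libraries the lowest, with in vivo and D3 overlapping between them. D7 was lower than 2D, with a log2 fold change of -2.28 ± 0.61 (SE) (adjusted p = 0.00598, edgeR), while the adjusted p was 0.0711 for in vivo against 2D, 0.144 for D7 against D3 and 0.198 for D3 against 2D. The D7 against 2D call was lost without 2D replicate 1 (-2.03, adjusted p = 0.0535) and without D7 replicate 1 (-2.07, adjusted p = 0.0644).

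Hmga1 shared 26.2% of its 50-base words near the transcript ends with Hmga1b, a near-identical copy of the gene, so reads may have been split between them or set aside. Hmga1b itself had 4 to 59 counts in a library, most in 2D (10.6 CPM) and fewest in D7 (0.838 CPM). With the counts of both summed, a choice made after the values were seen, D7 against 2D stayed past the threshold, and in vivo against 2D (-1.70, adjusted p = 0.00344), D3 against 2D (-1.36, adjusted p = 0.0146) and D7 against D3 (-1.56, adjusted p = 0.0262) also passed it. Smim29, on the other strand of the Hmga1 locus, had 29 to 356 counts and was lower in 2D than in vivo (adjusted p = 2.75e-05) and in D7 (adjusted p = 0.000855). How reads were counted by strand is not stated.

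Lin28b, at chr10:45252646-45362557 (minus strand), was the scarcest of the 6 in counts, with 19 and 18 reads in vivo, 11 and 5 in 2D, and 0 in each of the 4 organoid libraries. These were 3.30 and 2.53 CPM in vivo and 1.99 and 0.926 CPM in 2D. The in vivo and 2D values did not overlap, but their difference did not pass the test (0.98 ± 1.02 on the log2 scale, adjusted p = 0.470). Set against the floor of 3 counts per library, the in vivo mean was at least 6.31-fold higher than D3 and at least 6.06-fold higher than D7. The 2D mean was at least 3.16-fold higher than D3 and at least 3.04-fold higher than D7. These bounds are a description, since Lin28b passed the filter on low values through in vivo replicates 1 and 2 and 2D replicate 1 alone. Neither Lin28 gene had a read in an organoid library.

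Igf2bp3, at chr6:49062144-49192447 (minus strand), had 108 and 92.0 CPM in vivo, 95.2 and 93.9 CPM in 2D, 54.1 and 44.0 CPM in D3 and 16.2 and 16.7 CPM in D7. In vivo and 2D overlapped, D3 lay below both and D7 below D3. The D7 mean of 16.5 ± 0.386 CPM compared with 49.1 ± 7.11 in D3, so that the level fell by 1.57 ± 0.20 (SE) on the log2 scale between the organoid ages (adjusted p = 4.1e-05, edgeR). Across the alternatives this value ran from -1.78 to -1.42 and every one passed the threshold. The log2 fold change of D3 over 2D was -0.95 ± 0.18 (adjusted p = 0.000463), and that of in vivo over D3 was 1.03 ± 0.18 (adjusted p = 0.000299). For D7 over 2D it was -2.52 ± 0.20 (adjusted p = 1.81e-08), and for in vivo over D7 2.60 ± 0.20 (adjusted p = 2.22e-08). Malsu1, on the other strand of the Igf2bp3 locus, had 167 to 265 counts, with a D7 over D3 difference of -0.0025 on the log2 scale (adjusted p = 0.995).

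Igf2bp2, at chr16:21877759-21982499 (minus strand), changed least in fold. It had 150 and 132 CPM in vivo, 170 and 163 CPM in 2D, 118 and 116 CPM in D3 and 76.8 and 82.2 CPM in D7. The 4 groups did not overlap and ranked 2D, in vivo, D3, D7, but in vivo did not differ from 2D (adjusted p = 0.215) or from D3 (adjusted p = 0.217) beyond the spread. D7 was lower than each other group, with a log2 fold change of -0.56 ± 0.15 (SE) over D3 (adjusted p = 0.0168, edgeR) and -1.07 ± 0.16 over 2D (adjusted p = 2.88e-05), and of 0.82 ± 0.15 for in vivo over D7 (adjusted p = 0.000515). D3 over 2D was -0.51 ± 0.15 (adjusted p = 0.0137). The D7 against D3 call was lost without D3 replicate 1 (adjusted p = 0.0635), D7 replicate 1 (0.114) or D7 replicate 2 (0.0825). The D3 against 2D call was lost with library size alone (-0.25, adjusted p = 0.215), without 2D replicate 1 (adjusted p = 0.0708) and without D3 replicate 2 (adjusted p = 0.0641).

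Igf2bp1, at chr11:95847989-95896911 (minus strand), had 19.4 and 16.5 CPM in vivo, 19.4 and 27.8 CPM in 2D, 3.37 and 5.43 CPM in D3 and 0.124 and 3.55 CPM in D7. In vivo and 2D overlapped, the organoid groups lay below them, and D3 and D7 overlapped. The 2 D7 values came from 1 and 18 reads, so their mean of 1.84 ± 2.42 CPM had an SD above the mean. The log2 fold change was -2.40 ± 0.54 (SE) for D3 over 2D (adjusted p = 0.00183, edgeR) and 2.01 ± 0.54 for in vivo over D3 (adjusted p = 0.00943). DESeq2's Wald test did not call either (adjusted p = 0.0911 and 0.211), and in vivo against D3 was also lost without D3 replicate 1 (adjusted p = 0.104). It was -3.90 ± 0.62 for D7 over 2D (adjusted p = 7.8e-05) and 3.50 ± 0.63 for in vivo over D7 (adjusted p = 0.000335).
The D7 over D3 value of Igf2bp1 turned on 1 library. It was -1.49 ± 0.68 with all libraries (adjusted p = 0.137), -4.96 without D7 replicate 2 and -0.32 without D7 replicate 1. limma-voom (adjusted p = 0.0464) and the fit with no filter on low counts (adjusted p = 0.0131) called it, within a range over the alternatives of 0.00140 to 0.755.

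**Figure D3:**
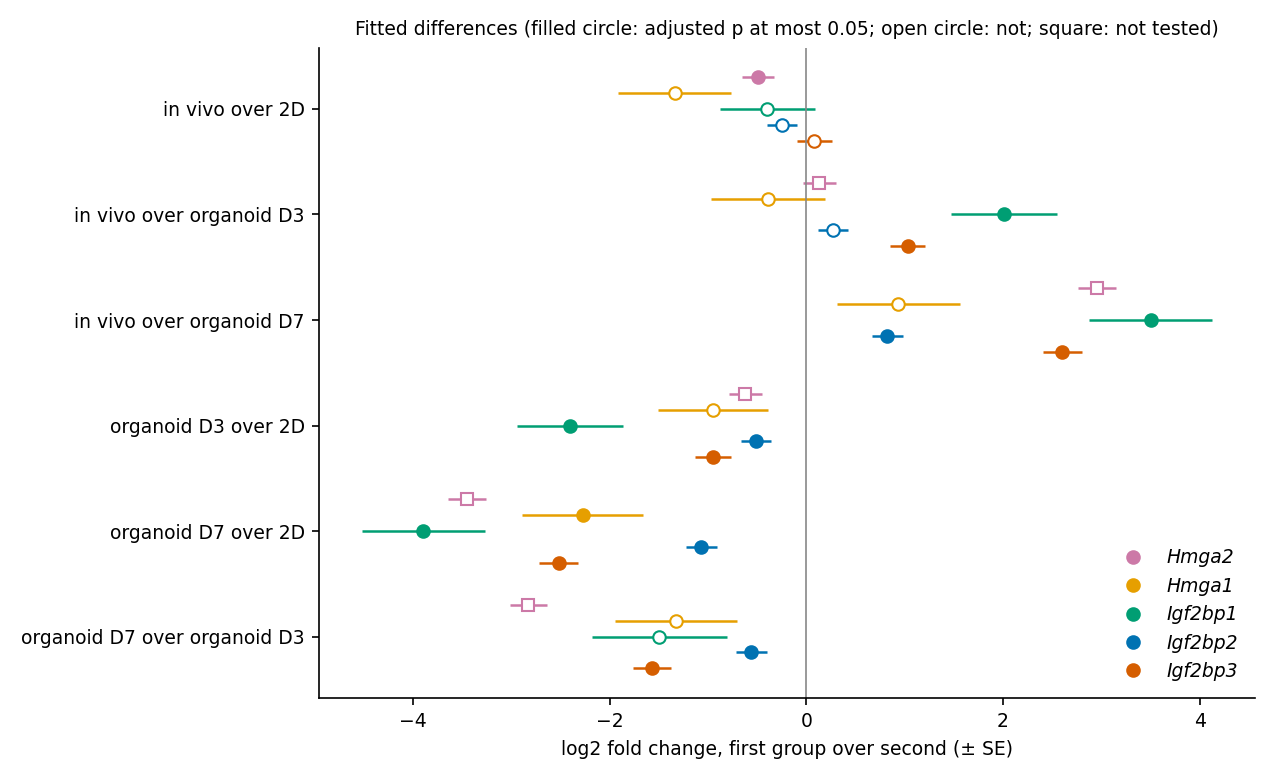
Log2 fold change (x axis, first group over second, bars ± SE) of 5 genes in the 6 comparisons (y axis). Filled circles passed an adjusted p of 0.05, open circles did not and squares were not tested; every value of the D7 over 2D row lies below 0, from -3.90 for Igf2bp1 to -1.07 for Igf2bp2. Lin28b is left out because its organoid groups are at 0.

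The genes whose levels ran most like those of Hmga2 over the 8 libraries were Grb10, an imprinted adaptor of growth factor receptors (Pearson r = 0.989 on log2(CPM + 1)), Rbms1, an RNA-binding protein (0.984), Coq3 (0.971), Far1 (0.969) and Ncs1 (0.967), among 9008 genes with a mean of at least 10 CPM. Grb10 averaged 184.9 CPM in vivo, 210.0 in 2D, 126 in D3 and 28.4 in D7. For Igf2bp3 the nearest were Camk2g (0.988) and Eif4g3 (0.986), for Igf2bp2 Cops7b (0.986) and Snhg6 (0.986), for Igf2bp1 Zfp560 (0.952) and Stk17b (0.947), for Hmga1 Kif2a (0.977) and Znrf1 (0.954), and for Lin28b Nmi (0.992) and Bcl10 (0.990). These are descriptions over 8 points in 4 groups, and correlations ranked highest among this many genes are high by selection.

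Other mRNAs known or widely used as let-7 targets were followed in a list of 30, of which 27 were tested. Over all genes tested, 9.9% were lower and 10.9% higher in D7 than in D3. Between D3 and D7, 8 of the 27 were lower in D7, 0 were higher (edgeR; 2 higher at an unadjusted p under 0.05, 0 with limma-voom and 0 with DESeq2) and 19 were not called, with a median log2 fold change of -0.30 against 0.06 over all genes. Rrm2, a subunit of ribonucleotide reductase, fell from 165 to 36.6 CPM, Igf1r, the receptor for insulin-like growth factors, from 83.9 to 36.0 CPM, and Hic2, a transcriptional repressor, from 19.4 to 9.63 CPM. Myc (9.35 to 2.53 CPM), Ccnd1 and Nras also fell, as did Mycn, which had 12 and 10 reads in D3 and 0 in both D7 libraries (at least 3.55-fold lower against the floor).
Against 2D, D7 was lower for 14 of the 27 and higher for 4, with a median of -0.86 against 0.10 over all genes. Of all genes, 21.1% were lower and 24.4% higher in D7 than in 2D. Ccnd2, a cyclin of the G1 phase, went the other way, with a mean of 1505 CPM in 2D, 3776 in D3 and 3393 in D7, while Cdk6, its kinase partner, fell from 298 CPM in 2D to 45.1 in D3 and 35.5 in D7. In vivo against D7, 15 were higher in vivo and 3 lower, beside 16.8% and 18% of all genes. In vivo against D3, 7 were higher and 4 lower, beside 14% and 14.1% of all genes. In vivo against 2D, 8 were higher and 9 lower, beside 21.7% and 19.9% of all genes. D3 against 2D had 5 higher and 11 lower in D3, beside 19.3% and 19.1% of all genes. Of the 30, 29 had an annotated 3′ UTR and 21 of these held a seed match. Myc, Mycn and Ccnd1, which fell between D3 and D7, were among those that did not, as were Ccnd2 and Cdk6.

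**Figure D4:**
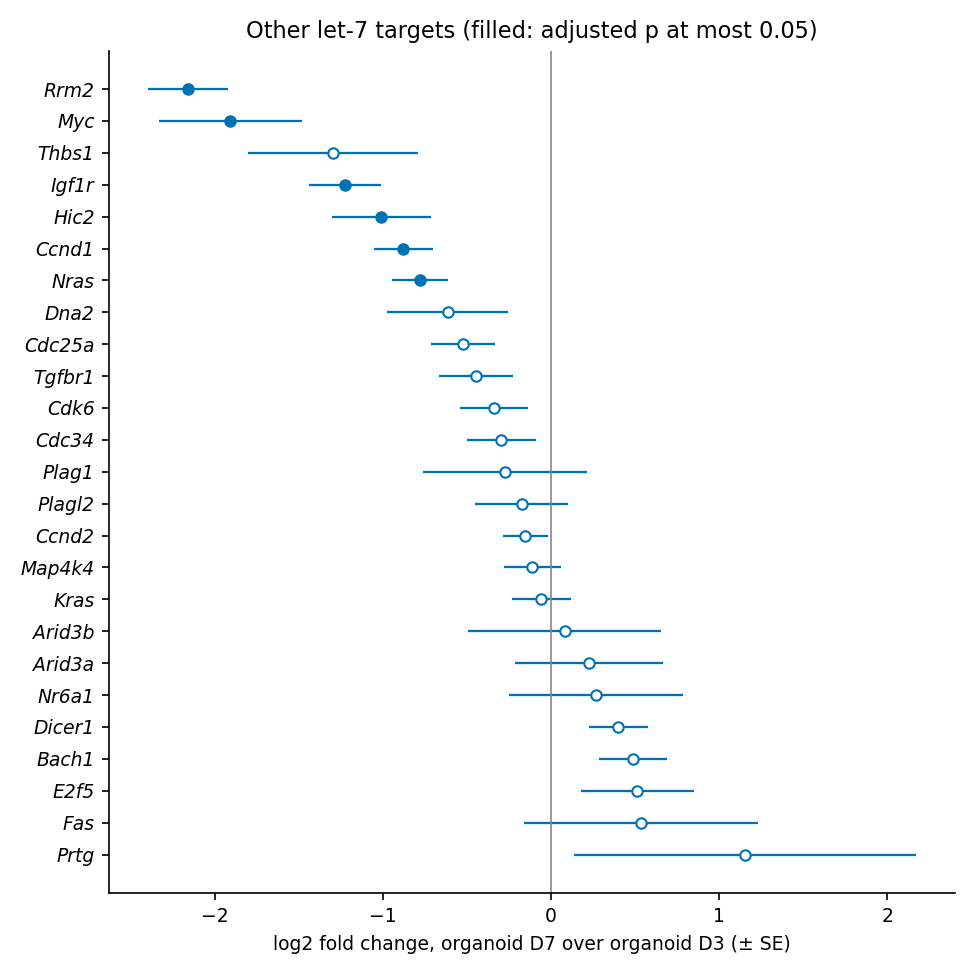
Log2 fold change of D7 over D3 organoids (x axis, bars ± SE) for 25 of the 27 other let-7 targets tested; Mycn, with D7 at 0, is 1 of the 2 not drawn, both of them below 0. Filled points passed an adjusted p of 0.05; 17 genes lie below 0 and 8 above, and no filled point lies above 0.

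Genes picked only by seed matches in the 3′ UTR, with the 7 genes left out, had D7 over D3 values close to those of other genes. Of 635 genes with an 8mer, 8.66% were lower and 9.61% higher in D7, their log2 fold changes had a median of 0.07, and their UTRs a median of 3107 bases. For 254 genes with at least 2 matches the shares were 7.87% and 8.27%, with a median of 0.08 and a median UTR of 4019 bases. Genes with no match had 11.6% lower, 11.5% higher, a median of 0.04 and a median UTR of 1762 bases. Of the 10 other genes with at least 4 matches, 1 (Hic2) was lower and 2 (Nsmf and Mcf2l) were higher in D7. In D7 against 2D, 24.1% of the genes with an 8mer were lower and 21.6% higher, beside 23.5% and 26.1% of those with no match.

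**Figure D5:**
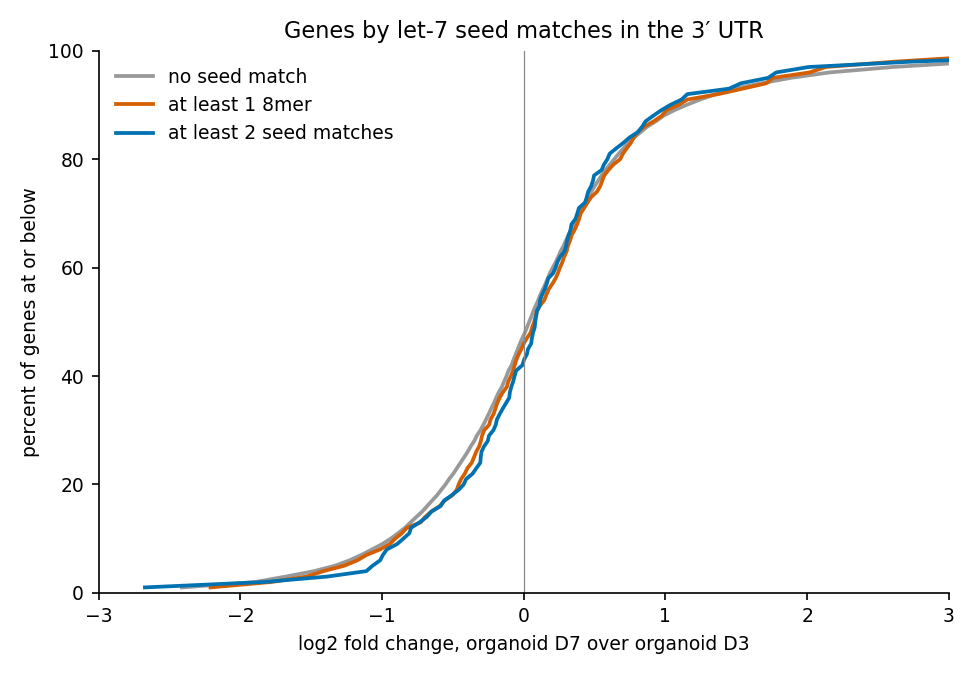
Cumulative percent of genes (y axis) by log2 fold change of D7 over D3 organoids (x axis) for genes with no let-7 seed match, with at least 1 8mer and with at least 2 matches in the 3′ UTR. The 3 curves run close together, with medians of 0.04, 0.07 and 0.08 in that order, so that the curve with no match lies slightly to the left at the middle.

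Mature miRNAs were not measured in these libraries of polyadenylated 3′ ends. Of 14 annotated let-7 and miR-98 loci, 13 had 0 counts in every library, and Mir98, inside Huwe1, had 0 to 6. Transcripts that host let-7 genes were read instead, a set chosen after the values were seen. Mir100hg, host of let-7a-2, averaged 77.6 CPM in vivo, 132 in 2D, 170.0 in D3 and 156 in D7, and was lower in vivo than in each culture (adjusted p = 0.0175 for 2D, 0.00175 for D3 and 0.00372 for D7). Other hosts differed in direction: Spaca6 was lower in vivo than in 2D (adjusted p = 0.000607) and D7 (0.0192), Wdr82 was higher in vivo than in 2D (0.0481) and Huwe1 higher in vivo than in D3 (0.0478). Between D7 and D3, 0 of the 8 hosts tested passed edgeR's threshold, with adjusted p from 0.0948 to 0.917. At an unadjusted p under 0.05, 1 was higher in D7, limma-voom called 1 and DESeq2 called 0.

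Of the machinery that makes and loads miRNAs, 2 of 13 genes tested were lower in D7 than in D3 and 0 were higher in edgeR's test (2 at an unadjusted p under 0.05, 1 with limma-voom, 0 with DESeq2). They were Ran, the GTPase that drives nuclear export (337 to 104 CPM), and Xpo5, the export receptor for miRNA precursors (47.1 to 27.8 CPM). Drosha, Dgcr8 and Dicer1, which cut the precursors, did not pass between D7 and D3. Over all genes, 9.9% were lower and 10.9% higher in D7 than in D3. Of 12 genes that act with LIN28 or turn over let-7 precursors, among them the uridylyl transferases Tut4 and Tut7 and the nuclease Dis3l2, 0 passed between D7 and D3 in edgeR's test. At an unadjusted p under 0.05, 4 were lower and 2 higher in D7, limma-voom called 1 lower and 1 higher and DESeq2 2 lower and 0 higher. Setd7 was lower in D3 (45.5 CPM) and D7 (49.9 CPM) than in 2D (97.8 CPM).

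mRNAs known to be bound by IGF2BP proteins moved in both directions. Of 7 tested, 3 were lower in D7 than in D3 (Cd44, Igf1r and Myc) and 2 higher (H19 and Lamb2). Over all genes, 9.9% were lower and 10.9% higher in that comparison. Cd44, an adhesion receptor for hyaluronan, averaged 60.0 CPM in vivo, 463 in 2D, 51.2 in D3 and 14.2 in D7. H19, an imprinted long RNA, averaged 429 CPM in vivo, 69.7 in 2D, 9.15 in D3 and 50.8 in D7. The D7 libraries of H19 lay apart, at 21.5 and 79.99 CPM, and its log2 fold change over D3, 2.42 with all libraries, was 1.22 without D7 replicate 2 and 3.11 without D7 replicate 1, past the threshold in each. Igf2, the mRNA that names the family, had 0 or 1 counts in every library, and it overlaps other annotated genes on the same strand, so no level is read from it. Of 14 genes that write, read or erase m6A, the RNA mark that IGF2BP proteins recognise, 2 were lower in D7 than in D3, the demethylase Alkbh5 (52.3 to 27.2 CPM) and the methyltransferase subunit Mettl14 (44.1 to 24.2 CPM).

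Other HMG proteins, which bind DNA or nucleosomes through other domains, were counted the same way. Of 7 tested, 4 were higher and 1 lower in D7 than in 2D, beside 24.4% and 21.1% of all genes. The lower one was Hmgb3 (58.9 against 124 CPM), which also fell from 138 CPM in D3. Hmgb2, a chromatin protein of dividing cells, averaged 64.5 CPM in 2D, 365 in D3 and 302 in D7. The Ink4a/Arf locus (Cdkn2a), which HMGA2 is known to restrain in fetal stem cells, was read together with related CDK inhibitors. Of these 4 genes, 3 were highest in 2D. Cdkn2b averaged 162 CPM in 2D and 1.47 in vivo, 4.29 in D3 and 3.22 in D7, and Cdkn2a averaged 55.1 CPM in 2D and 1.08, 4.40 and 8.09 CPM in the same order. Cdkn1a averaged 82.4 CPM in D3 and 52.2 CPM in D7, a log2 fold change of -0.66 that passed narrowly (adjusted p = 0.0435, edgeR). It did not pass with limma-voom (adjusted p = 0.0559), with the 4 libraries compared alone (0.0534), or without either 2D library, either D7 library or D3 replicate 1, where it was -0.16 (adjusted p = 0.642). Cdkn2a, Cdkn2b and Cdkn2c did not pass between those groups. Cdkn2c had 0 counts in both 2D libraries and was at least 16.4-fold higher in D3 and 13.8-fold higher in D7.

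Other oncofetal and imprinted genes did not follow a common course. Of 7 tested, 2 were lower in D7 than in D3 (Mest and Gpc3) and 2 higher (H19 and Peg3). Over all genes, 9.9% were lower and 10.9% higher in D7. Mest fell by 6.05 on the log2 scale, to 0.964 ± 1.09 CPM (SD, n = 2) in D7, where it had 14 and 1 counts. The log2 fold change was -8.43 without D7 replicate 1 and -5.42 without D7 replicate 2. Peg3 rose from 121 to 186 CPM. Sall4 had 0 counts in all libraries and Afp, the fetal liver protein, had 8 counts in 1 library.

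Marker lists moved with several of these groups, and their part in the results was not tested. All 12 proliferation genes passed the test as lower in D7, and as lower in 2D, when set against D3, with summed levels of 1544 to 1636 CPM in vivo, 530.1 to 649.9 in 2D, 2327 to 2585 in D3 and 1284 to 1335 in D7. Hmga1, Hmga2, Igf2bp1 and Igf2bp2 had their highest mean in 2D, and Lin28b and Igf2bp3 had theirs in vivo. Each of these genes had its lowest mean in D7, with Lin28b at 0 in both organoid groups. Of 12 TEC markers, Epcam averaged 198 to 767 CPM in the 4 groups, while Psmb11, a proteasome subunit that defines cortical TECs, had 3 counts in each 2D library and 3 and 7 in D3. Between D3 and D7, 4 of the 12 TEC markers were higher in D7 and 2 lower, beside 10.9% and 9.9% of all genes. Psmb11 averaged 538 CPM in vivo, 0.740 in D3 and 109 in D7, Foxn1, the transcription factor that TECs depend on, 248, 9.19 and 72.7 CPM, and Prss16, a cortical protease, 2866, 42.7 and 383 CPM in the same order. Krt5, a basal keratin, averaged 242 CPM in D3 and 69.5 in D7. The thymocyte list (12 markers) summed to 317 to 723 CPM in vivo and to 3.71 to 13.9 CPM in the cultures. The mesenchyme list (10 markers) summed to 51.2 to 52.6 CPM in vivo, 36.9 to 41.3 in 2D, 22.6 to 26.8 in D3 and 74.1 to 82.4 in D7. Of 7 mesenchyme markers tested, 3 passed as higher in D7 than in D3 and 0 as lower. They were Dcn (5.21 to 52.1 CPM), Lum (2.21 to 11.2 CPM) and Col3a1 (0.279 to 3.21 CPM). Col1a2 (11.1 to 6.32 CPM) and Twist1 (4.43 to 2.34 CPM) had lower means in D7, and Postn (0.377 to 1.07 CPM) and Col1a1 (0.923 to 1.33 CPM) higher means, without passing. In other comparisons, Col1a1 was lower in D7 than in vivo (6.20 CPM) and in 2D (11.3 CPM). Endothelial (6), erythroid (8) and myeloid (7) lists summed to at most 12.5 CPM in any library, with Cdh5 and Slc4a1 at 0 in all. The myeloid sum was 0.418 to 0.842 CPM in D3 and 11.6 to 12.5 CPM in D7. Most of the D7 sum was Lyz2, a lysozyme of myeloid cells, which was higher than in D3 (11.2 against 0.168 CPM). Lyz2 was the only marker of this list that passed the filter, and 5 to 6 of the 7 were at the floor in D7.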

How the data were processed

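Gene counts of 8 QuantSeq 3′ libraries were used as deposited. Per the labels and the study's methods, the authors aligned NextSeq 500 reads to GRCm39 with STAR and deposited raw counts per Ensembl gene; the annotation release and strand setting are not given in the sources used here, and R 4.1.2 is named in the submitters' processing notes. Of 56923 gene rows, 56236 matched a GENCODE vM39 symbol. The 7 genes, all gene lists and the tests were chosen with earlier results of these data known.

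The main test was edgeR's quasi-likelihood F test (edgeR 4.0.16, R 4.3.3) with TMM scaling, on genes that reached 1 CPM in 3 or more of the 8 libraries, in 1 model of 4 groups, with Benjamini-Hochberg adjustment over 14504 genes and a threshold of 0.05. The standard error is the log2 fold change divided by the square root of F. CPM divides counts by the TMM-scaled library size. Hmga2 was tested only between in vivo and 2D, and Lin28b, without reads in the organoids, is given against them as a lower bound. The 7 genes are reported with every value; of other lists, counts past the threshold, with as examples up to 3 of the largest changes among called genes of at least 10 CPM in the higher group, and genes named beyond these were chosen after their values were seen. Genes most like each of the 7 were ranked by Pearson correlation. Alternatives were limma-voom (limma 3.58.1), DESeq2 (1.42.0) and its size factors, library size alone, no filter, a mean of at least 10 CPM, a replicate block, only the 4 libraries compared, ribosomal RNA genes left out (22.7% to 29.4% of counts), each library left out, and, added after seeing the data, Hmga1 and Hmga1b summed. Counts in the 2 libraries of each group differed by more than sampling noise. The fit was tested on simulated data. Some list genes are counted but not reported here by name.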

Additional observations from a re-analysis of the deposited data

How the results depend on the processing

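Of 18 alternatives, each changing 1 choice, the direction of every tested difference of the 6 genes held except for 2 that had not passed the test: Igf2bp3 in vivo over 2D became -0.040 without in vivo replicate 1 (range with 1 library left out -0.040 to 0.18), and Hmga1 in vivo over D3 became 0.23 without D3 replicate 1 (range -0.91 to 0.23). The untested Hmga2 value in vivo over D3 ran from -0.055 to 0.27. Over all gene-level values, 555 alternatives kept direction and side of the threshold, 23 lost a call and 8 gained one. The number of the 7 genes called in vivo against 2D was 1, and became 2 with limma-voom, 0 with library size alone, 2 with Hmga1 and Hmga1b summed (chosen after seeing the data), and 0 to 2 when 1 library was left out. For D7 against 2D, with Lin28b left out because the filter fixed its direction, it was 4. It became 3 with a mean of at least 10 CPM, where Hmga1 was no longer tested. The Hmga1 call was also lost without 2D replicate 1 and without D7 replicate 1, as given above. With 1 library left out, the D7 over D3 value ran from -0.63 to -0.51 for Igf2bp2 and from -1.78 to -1.42 for Igf2bp3. The Igf2bp2 calls lost this way are given above. Over all genes, calls in vivo against D7 were 5043 and ran from 3031 to 5062 with 1 library left out, and D7 against D3 were 3011 and ran from 1221 (without D7 replicate 2) to 3416, with 1674 without D3 replicate 1. Where 1 library was left out, the remaining one was assumed to vary like the other groups. The cause of the other changes was not tested.

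Same-numbered libraries correlated in their deviations by 0.0377 to 0.149 over 6 pairs of groups, with 3 of the 6 above 0.1. The labels do not say that a number marks a shared animal, litter or day, and the libraries were not treated as pairs. With the replicate block, 3585 genes were called for D7 against D3 in place of 3011. The calls of the 7 genes, Lin28b included, were 1, 3 and 4 for in vivo against 2D, D3 and D7. They were 4 for D3 against 2D, and 5 and 2 for D7 against 2D and D3. These counts were the same as without the block. Where in vivo or 2D was set against an organoid group, the filter fixed the direction of Lin28b, so its call there tests nothing. With Lin28b left out, the counts without the block were 2 and 3 for in vivo against D3 and D7. They were 3 for D3 against 2D and 4 for D7 against 2D. Depth limits Hmga1, Lin28b and Igf2bp1, which had 0 to 150 reads in a library.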
